A study of Mus musculus with 8 samples.

Results

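The 10 genes described here encode the writers of histone H3 lysine 9 (H3K9) methylation and the proteins that read or anchor it: Setdb1, Suv39h1, Suv39h2, Ehmt1, Ehmt2, Trim28, Cbx1, Cbx3, Cbx5 and Mphosph8. They were chosen by gene symbol and not by a measured value, although earlier results of these data were known. These are 10 of the 24062 genes in a table of 25215 entries that also counts 1153 repeat subfamilies. All 10 passed the filter on low counts, with 15287 entries of the table. Poly(A) RNA had been sequenced from immortalized mouse embryonic fibroblasts (iMEFs) in 4 groups of 2 libraries. The groups were Ring1a shRNA with DS3201, ctr shRNA with DS3201, Ring1a shRNA alone and ctr shRNA alone. All 4 groups, the ctr shRNA cells included, carry the same 6KO genotype, labelled as knockout of Ring1b (Rnf2) and of 5 of the 10 genes, namely Setdb1, both Suv39h genes and both Ehmt genes. No cells with intact H3K9 methyltransferases are among the labelled samples, so no value below measures the effect of the knockouts themselves. DS3201, an inhibitor of the H3K27 methyltransferases EZH1 and EZH2, was given at 1 uM for 7 days, and the shRNA against Ring1a (gene symbol Ring1) was delivered by lentivirus with drug selection. The sources used here do not say whether the 6KO line is a single clone. The study asks how Polycomb marks hold silencing once H3K9 methylation is lost.

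In mammals, SETDB1 is brought to chromatin by zinc-finger proteins through the corepressor TRIM28 (KAP1), and methylates H3K9 at endogenous retroviruses. SUV39H1 and SUV39H2 deposit trimethylation at pericentromeric repeats, and EHMT1 (GLP) and EHMT2 (G9a) form a heterodimer that deposits dimethylation in euchromatin. The mark is bound by the chromodomains of the HP1 proteins, HP1 beta (Cbx1), HP1 gamma (Cbx3) and HP1 alpha (Cbx5), and of MPP8 (Mphosph8), a subunit of the HUSH silencing complex.

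The column names carry a prefix, 20 or 28, with 1 library of each group under each prefix, and these are called set 20 and set 28. Library totals ran from 12738585 to 23688253 counts, and the members' counts from 49 for Setdb1 to 14529 for Cbx5. Ring1, the target of the shRNA, was at 3.52 and 2.04 CPM (the count scaled to the TMM library size) in Ring1a shRNA cells with DS3201 (set 20, then set 28), against 20.4 and 7.51 CPM in ctr shRNA cells with DS3201. It was at 4.51 and 1.41 CPM in Ring1a shRNA cells, against 20.2 and 9.73 CPM in ctr shRNA cells, so that within each set the Ring1a shRNA library was the lower. Of 9 fibroblast markers, 8 averaged at least 1 CPM, the exception being Thy1. The summed level of the 9 fibroblast markers was 12188 to 14690 CPM in the 4 libraries with DS3201, against 18124 to 20785 CPM in the 4 without, and the part of this shift in the results was not tested. The collagen genes carry most of that difference, with Col1a1 at a mean of 3786 CPM with DS3201 and 6167 CPM without it, while Vim was at 2332 CPM with DS3201 and 2292 CPM without it. Pdgfra ran the other way, at 19.1 CPM with DS3201 and 2.60 CPM without it. The summed level of 4 epithelial markers was at most 3.75 CPM in any library, that of 3 pluripotency markers at most 2.75 CPM, and that of 4 blood markers at most 10.6 CPM with Hbb-bs at 0 in all. Of 4 neuronal markers the summed level was 11.2 to 94.0 CPM with DS3201, against 0.43 to 47.2 CPM without it, and Map2 alone reached 91.8 CPM while Rbfox3, Snap25 and Syt1 reached at most 0.64, 0.53 and 1.59 CPM in any library. Of 4 endothelial markers it was 14.5 to 20.2 CPM with DS3201, against 11.1 to 22.6 CPM without it. In these bulk samples, fewer cells expressing a gene and less RNA per cell cannot be told apart.

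The library of ctr shRNA with DS3201 in set 28 stood apart from the rest. Its deviations from the other 3 set 28 libraries had a median size of 0.49 on the log2 scale over the 10 genes, while the same median was 0.085 to 0.194 in the other 7 libraries against their own sets. Over the 13702 tested genes with a GENCODE transcript the median size was also 0.49 in this library, and 0.194 to 0.287 in the other 7. The 10 genes thus deviated in it about as much as genes at large. The SD of the deviation over those genes, 0.92, was not the largest, which was 0.95. Ehmt2 deviated by -0.94 in this library, Setdb1 by -0.59, Suv39h1 by -0.58 and Trim28 by -0.50. In the other direction, Mphosph8 deviated by 0.76, Cbx5 by 0.47, Suv39h2 by 0.43, Cbx3 by 0.41 and Cbx1 by 0.38, and Ehmt1 by 0.04. Over the 13702 tested genes with a GENCODE transcript, the library's deviation correlated with transcript GC content at Pearson r = -0.47 across genes, which are not independent replicates; in the other 7 libraries r was between -0.055 and 0.194. The genes that were low in it include those with the most GC-rich transcripts, Ehmt2 at 60.8% GC and Trim28 at 59.6% GC, and the high ones the most AT-rich, Cbx3 at 41.1% GC, and Mphosph8 and Cbx5 at 42.6% GC each. What set this library apart was not tested, and the DS3201 fold change of each gene is given with and without it.

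**Figure D1:**
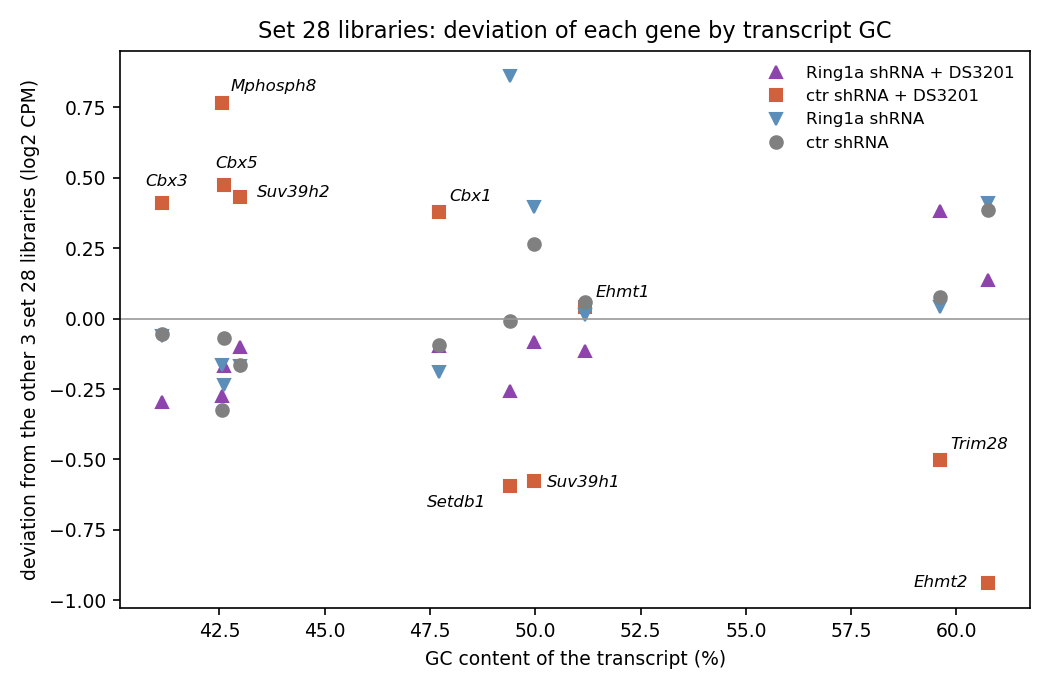
Deviation of each gene in each set 28 library from the mean of the other 3 set 28 libraries (log2 CPM, vertical axis) against the GC content of its transcript in percent (horizontal axis), with 1 point per gene and library. The squares, the library of ctr shRNA with DS3201, run from 0.76 for Mphosph8 at 42.6% GC to -0.94 for Ehmt2 at 60.8% GC.

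All 10 genes gave reads in all 8 libraries, the 5 methyltransferase genes labelled as knocked out included. The sources used here do not give the positions of the edits, and a count per gene does not show whether the transcripts are intact, so these counts do not check the knockouts. Per kilobase of transcript, levels differed between the genes by a wide margin. Cbx3 was the most abundant at a mean of 148 CPM per kb over the 8 libraries (133 to 192), followed by Trim28 at 79.8 (55.7 to 100.5), Cbx5 at 58.6 (37.9 to 81.5), Ehmt2 at 46.9 (24.6 to 53.9) and Cbx1 at 43.9 CPM per kb (32.8 to 59.6). Below them came Suv39h1 at 25.3 (17.4 to 28.9), Mphosph8 at 17.5 (13.5 to 23.9), Ehmt1 at 7.41 (6.00 to 8.57), Suv39h2 at 3.56 (2.81 to 4.92) and Setdb1 at 1.71 CPM per kb (0.929 to 2.81). The ranges of Trim28 and Cbx5, of Cbx5 and Ehmt2, of Ehmt2 and Cbx1, and of Suv39h1 and Mphosph8 overlap. The order within these pairs is thus not clear of the spread over libraries. The other neighbours do not overlap, though the gap between Suv39h2 (lowest 2.814) and Setdb1 (highest 2.808) is narrow. Among the 13702 tested genes with a transcript length, the level per kilobase of Cbx3 was at percentile 97.5, that of Trim28 at 94.5 and that of Cbx5 at 92.1, while Suv39h2 was at percentile 34.1 and Setdb1 at 23.9. Within the paralogous pairs of writers, Suv39h1 was therefore above Suv39h2 and Ehmt2 above Ehmt1 in every library on the scale per kilobase.

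**Figure D2:**
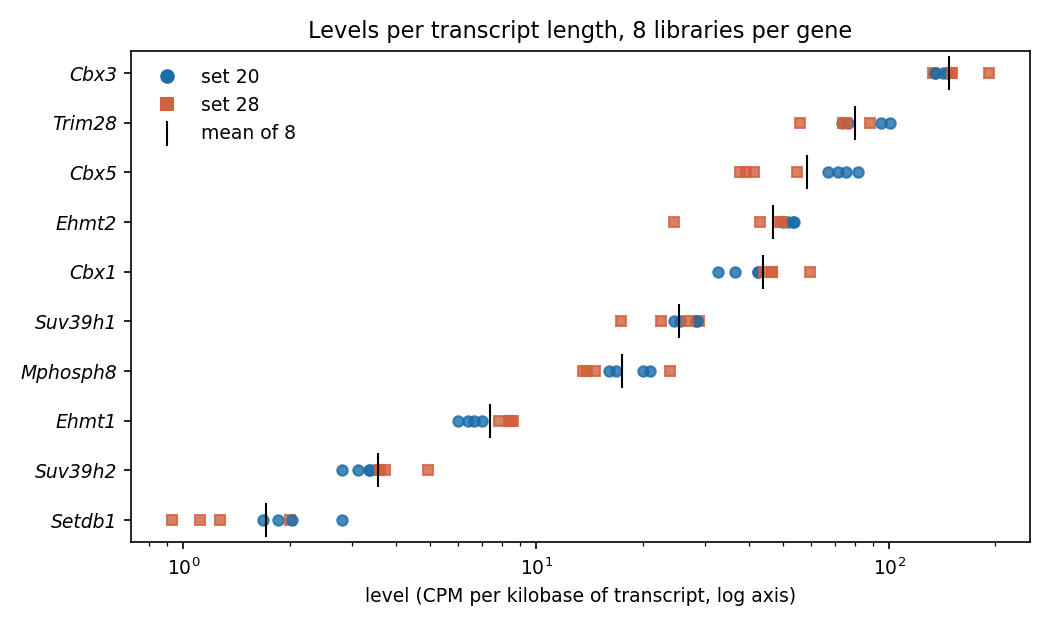
Level of each gene per kilobase of transcript (CPM per kb, log axis) in the 8 libraries, circles for set 20 and squares for set 28, with the mean of 8 as a bar. Levels run from 1.71 CPM per kb for Setdb1 to 148 CPM per kb for Cbx3, and the 2 sets do not overlap for Cbx5, Ehmt2, Cbx1, Ehmt1 and Suv39h2.

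Several of these counts may include reads from other loci, since the tool and the strand setting used for counting are not given. Cbx3, a gene with many processed pseudogenes, shares 28.9% of its 50-base stretches of transcript with 16 other genes, among them Cbx3-ps6 and Cbx3-ps7. Of the Suv39h1 transcript, 24.6% overlaps exons of the antisense gene Gm14820, and of Mphosph8 13.1% overlaps Gm16973 on the opposite strand. Smaller overlaps are 8.25% of Suv39h2 with Dclre1c and 6.91% of Setdb1 with Cers2 and Gm37500, and Setdb1 shares 9.37% of its 50-base stretches with 3 genes, Gm4349 included. The levels of these 5 genes are therefore uncertain, and the share of their reads that comes from other loci was not measured.

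Whether EZH1/2 inhibition alters the H3K9 machinery was addressed by setting the 4 libraries with DS3201 against the 4 without, over both shRNAs. None of the 10 genes passed edgeR's quasi-likelihood test at an adjusted p of 0.05, while 5.46% of all entries did (801 higher and 33 lower). None of the 10 had an unadjusted p under 0.05, beside 2706 of 15287 entries. DESeq2 called 0 of the 10, beside 1410 higher and 227 lower among 21811 entries. Their log2 fold changes ran from -0.51 to 0.25 with a median of 0.01, beside a median of 0.04 over all entries, and their median size without the sign was 0.16, beside 0.28. With the set as a replicate block, 17.1% of entries passed and again none of the 10. Setdb1 and Suv39h1 then had an unadjusted p under 0.05, 2 of 10 genes beside 4896 of 15287 entries.

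**Figure D3:**
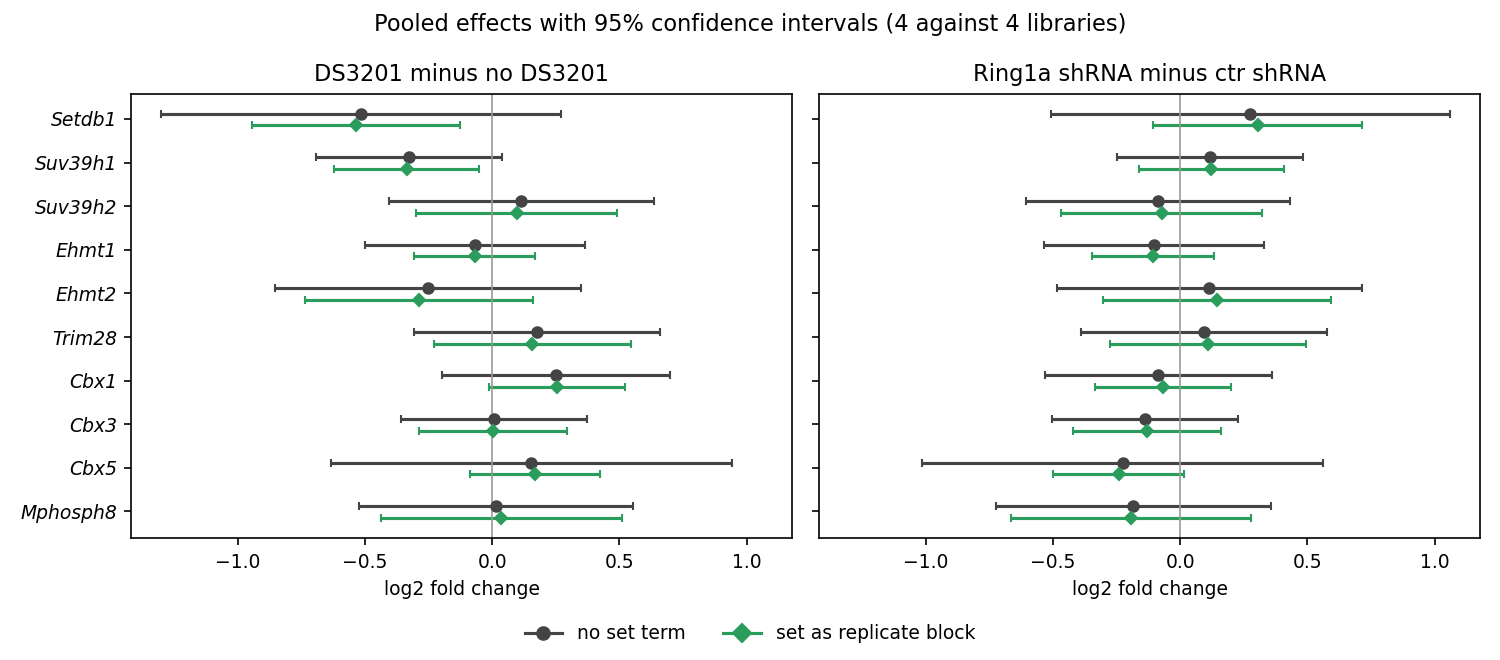
Log2 fold changes of the 10 genes with 95% confidence intervals, for DS3201 minus no DS3201 (left) and Ring1a shRNA minus ctr shRNA (right), 4 against 4 libraries each, without a term for the set (circles) and with the set as a block (diamonds). Without the term every interval includes 0, and with it the intervals of Setdb1 (-0.94 to -0.12) and Suv39h1 (-0.62 to -0.05) under DS3201 lie below 0.

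Among the writers, Setdb1 and Suv39h1 had the most negative fold changes with DS3201. Coordinates of genes are RefSeq spans on GRCm38. Setdb1 (chr3:95323525-95357202) was at 7.85 and 5.17 CPM in Ring1a shRNA cells with DS3201 (set 20, then set 28, here and below), 8.61 and 4.33 CPM in ctr shRNA cells with DS3201, 13.1 and 9.36 CPM in Ring1a shRNA cells, and 9.46 and 5.91 CPM in ctr shRNA cells. The library with DS3201 was the lower in each of the 4 pairs of the same shRNA and set, but the libraries with and without DS3201 overlap because set 28 lies below set 20. The log2 fold change was -0.51 ± 0.33 (SE, adjusted p = 0.492; 95% interval -1.30 to 0.27), and -0.53 ± 0.17 with the block (adjusted p = 0.0815). Without the library that stands apart and without the block it was -0.35 ± 0.30. Suv39h1 (chrX:8061171-8074760) was at 79.4 and 70.1 CPM in Ring1a shRNA cells with DS3201, 76.6 and 54.2 CPM in ctr shRNA cells with DS3201, 88.3 and 90.0 CPM in Ring1a shRNA cells, and 89.0 and 84.1 CPM in ctr shRNA cells. Every library with DS3201 lay below every library without it. Its log2 fold change was -0.33 ± 0.15 (adjusted p = 0.338; 95% interval -0.69 to 0.04), and -0.34 ± 0.12 with the block (adjusted p = 0.106). Without the library that stands apart and without the block it was -0.25 ± 0.10. Suv39h1 was the 1 member of 10 whose 4 and 4 libraries did not overlap, as was the case for 17.6% of all entries. Members with the same sign in 4 of 4 pairs were 5 of 10, Cbx1 and Cbx5 higher and Setdb1, Suv39h1 and Ehmt1 lower with DS3201, against 44.1% of all entries.

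The 250 bases before the RefSeq start of Setdb1 and Suv39h1, the writers with the most negative fold changes under DS3201, are shown beside those of Suv39h2, the paralogue of Suv39h1, to show how their CpG content differs. Windows are from RefSeq on GRCm38.p6, which is mm10, and are written in the gene's direction, with each CG dinucleotide in capitals. Setdb1 is read from chr3:95357203-95357452 on the minus strand, Suv39h1 from chrX:8074761-8075010 on the minus strand, and Suv39h2 from chr2:3474987-3475236 on the minus strand.
Setdb1: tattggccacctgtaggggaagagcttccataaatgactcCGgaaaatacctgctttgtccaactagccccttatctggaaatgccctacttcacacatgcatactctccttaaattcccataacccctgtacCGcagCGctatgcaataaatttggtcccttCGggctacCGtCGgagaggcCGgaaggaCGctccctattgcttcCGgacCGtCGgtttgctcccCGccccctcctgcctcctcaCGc
Suv39h1: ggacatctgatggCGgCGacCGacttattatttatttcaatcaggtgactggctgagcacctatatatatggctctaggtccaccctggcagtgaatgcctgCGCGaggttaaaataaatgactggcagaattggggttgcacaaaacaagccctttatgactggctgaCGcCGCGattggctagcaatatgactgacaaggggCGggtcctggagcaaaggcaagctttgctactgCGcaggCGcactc
Suv39h2: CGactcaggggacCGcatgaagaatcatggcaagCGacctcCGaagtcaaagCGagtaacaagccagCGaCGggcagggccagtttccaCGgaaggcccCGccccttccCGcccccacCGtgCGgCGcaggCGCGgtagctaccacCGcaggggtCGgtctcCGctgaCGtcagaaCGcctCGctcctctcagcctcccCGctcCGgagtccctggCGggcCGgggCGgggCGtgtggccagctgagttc
The Setdb1 window holds 13 CG dinucleotides at 54.4% GC, and 31.85% of the 27025 gene promoters of the same length hold at least as many. The Suv39h1 window holds 11 at 51.6% GC, a count reached by 36.0% of promoters. The Suv39h2 window holds 27 at 69.6% GC, a count reached by 8.16%. Over the 10 genes the count ran from 11 to 29, with Suv39h1 and Setdb1 lowest, beside a median of 6 over all promoters. No measurement of these regions was analysed here, and the counts are a description of the sequence.

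The other writers gave no consistent direction over the pairs, apart from small differences in Ehmt1. Suv39h2 (chr2:3455815-3474986) was at 14.6 and 16.1 CPM in Ring1a shRNA cells with DS3201, 12.2 and 21.3 CPM in ctr shRNA cells with DS3201, 13.5 and 15.5 CPM in Ring1a shRNA cells, and 14.5 and 15.6 CPM in ctr shRNA cells. Its log2 fold change with DS3201 was 0.11 ± 0.22 (adjusted p = 0.848). Without the library that stands apart the sign turned, to -0.15 ± 0.14, and to -0.11 with the block. Ehmt1 (chr2:24790769-24919643) was at 35.7 and 46.6 CPM in Ring1a shRNA cells with DS3201, 39.5 and 50.5 CPM in ctr shRNA cells with DS3201, 38.0 and 49.8 CPM in Ring1a shRNA cells, and 41.7 and 51.0 CPM in ctr shRNA cells. It was lower in all 4 pairs by small amounts, and the log2 fold change was -0.07 ± 0.18 (adjusted p = 0.898). Without the library that stands apart it was -0.19 ± 0.18, and -0.11 with the block. Where the block is not used, leaving out 1 library lets the difference between the sets enter the value. Ehmt2 (chr17:34898463-34914073) was at 201 and 173 CPM in Ring1a shRNA cells with DS3201, 217 and 98.9 CPM in ctr shRNA cells with DS3201, 208 and 199.6 CPM in Ring1a shRNA cells, and 215 and 197 CPM in ctr shRNA cells. The low value of Ehmt2 belongs to the library that stands apart. Its log2 fold change with DS3201 was -0.25 ± 0.25 (adjusted p = 0.679). Without that library it was -0.06 ± 0.11, and -0.095 with the block.

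Trim28 (chr7:13024152-13031032), the corepressor that recruits SETDB1, was at 307 and 286 CPM in Ring1a shRNA cells with DS3201, 326 and 181 CPM in ctr shRNA cells with DS3201, 239 and 239.7 CPM in Ring1a shRNA cells, and 248 and 244 CPM in ctr shRNA cells. Of the 4 libraries with DS3201, 3 lay above all 4 without it, and the fourth, the library that stands apart, lay below them all. The log2 fold change was 0.18 ± 0.20 (adjusted p = 0.726; 95% interval -0.31 to 0.66), and 0.16 ± 0.16 with the block (adjusted p = 0.546). Without the library that stands apart and with the block, it was 0.31 ± 0.06 (adjusted p = 0.0174), and without the block 0.32 ± 0.10 (adjusted p = 0.161).

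Of the HP1 genes, Cbx1 and Cbx5 were higher with DS3201 in all 4 pairs, though neither passed the test. Cbx1 (HP1 beta, chr11:96788680-96808982) was at 53.1 and 58.1 CPM in Ring1a shRNA cells with DS3201, 53.1 and 74.5 CPM in ctr shRNA cells with DS3201, 45.7 and 55.4 CPM in Ring1a shRNA cells, and 41.0 and 58.3 CPM in ctr shRNA cells. The log2 fold change was 0.25 ± 0.19 (adjusted p = 0.567), and 0.25 ± 0.11 with the block (adjusted p = 0.173). Without the library that stands apart it was 0.086 ± 0.17, and 0.17 ± 0.089 with the block. Cbx5 (HP1 alpha, chr15:103191546-103239904) was at 631 and 345 CPM in Ring1a shRNA cells with DS3201, 718 and 483 CPM in ctr shRNA cells with DS3201, 590.2 and 333 CPM in Ring1a shRNA cells, and 664 and 364 CPM in ctr shRNA cells. The sets differ far more than the treatments, and the log2 fold change with DS3201 was 0.15 ± 0.33 (adjusted p = 0.867), or 0.17 ± 0.11 with the block (adjusted p = 0.326). Without the library that stands apart it was 0.24 ± 0.38, and 0.061 ± 0.066 with the block. Cbx3 (HP1 gamma, chr6:51470154-51483704) was at 254 and 251 CPM in Ring1a shRNA cells with DS3201, 255 and 362 CPM in ctr shRNA cells with DS3201, 275 and 283 CPM in Ring1a shRNA cells, and 269 and 284 CPM in ctr shRNA cells. Its highest value is in the library that stands apart and the other 3 libraries with DS3201 lay below all 4 without it, at a log2 fold change of 0.01 ± 0.15 (adjusted p = 0.989). Without that library the value was -0.16 ± 0.096 (adjusted p = 0.434), and -0.16 ± 0.063 with the block (adjusted p = 0.112).

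Mphosph8 (chr14:56668235-56697430), the HUSH subunit MPP8, was at 49.5 and 40.8 CPM in Ring1a shRNA cells with DS3201, 47.1 and 70.1 CPM in ctr shRNA cells with DS3201, 58.9 and 43.2 CPM in Ring1a shRNA cells, and 61.7 and 39.7 CPM in ctr shRNA cells. The direction differed between the sets: the DS3201 difference was -0.32 on the log2 scale in set 20 and 0.37 in set 28, the second resting on the library that stands apart. The log2 fold change was 0.01 ± 0.23 (adjusted p = 0.983). Without that library it was -0.18 ± 0.23, and -0.27 with the block.

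**Figure D4:**
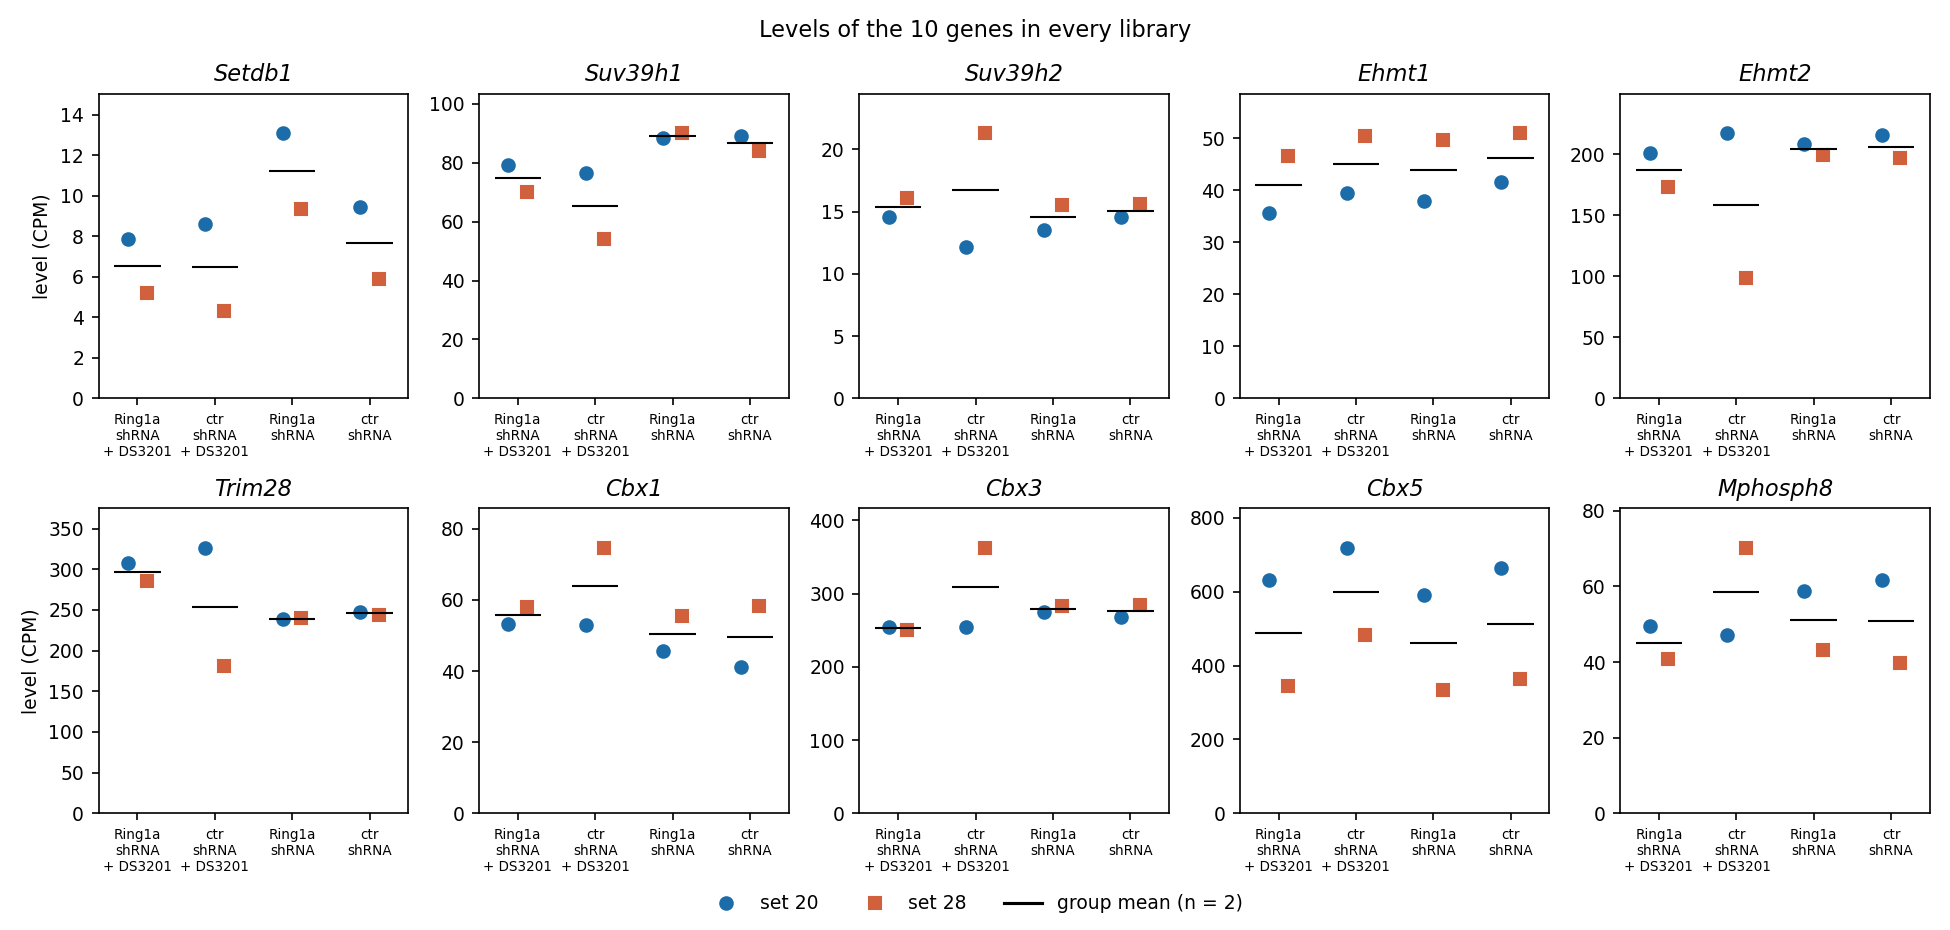
Level of each of the 10 genes in the 8 libraries (CPM, vertical axes from 0), by group, with circles for set 20, squares for set 28 and a bar for the group mean (n = 2). Suv39h1 lies below 80 CPM in all 4 libraries with DS3201 and above it in the other 4, and Cbx5 is higher in set 20 than in set 28 in every group.

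**Figure D5:**
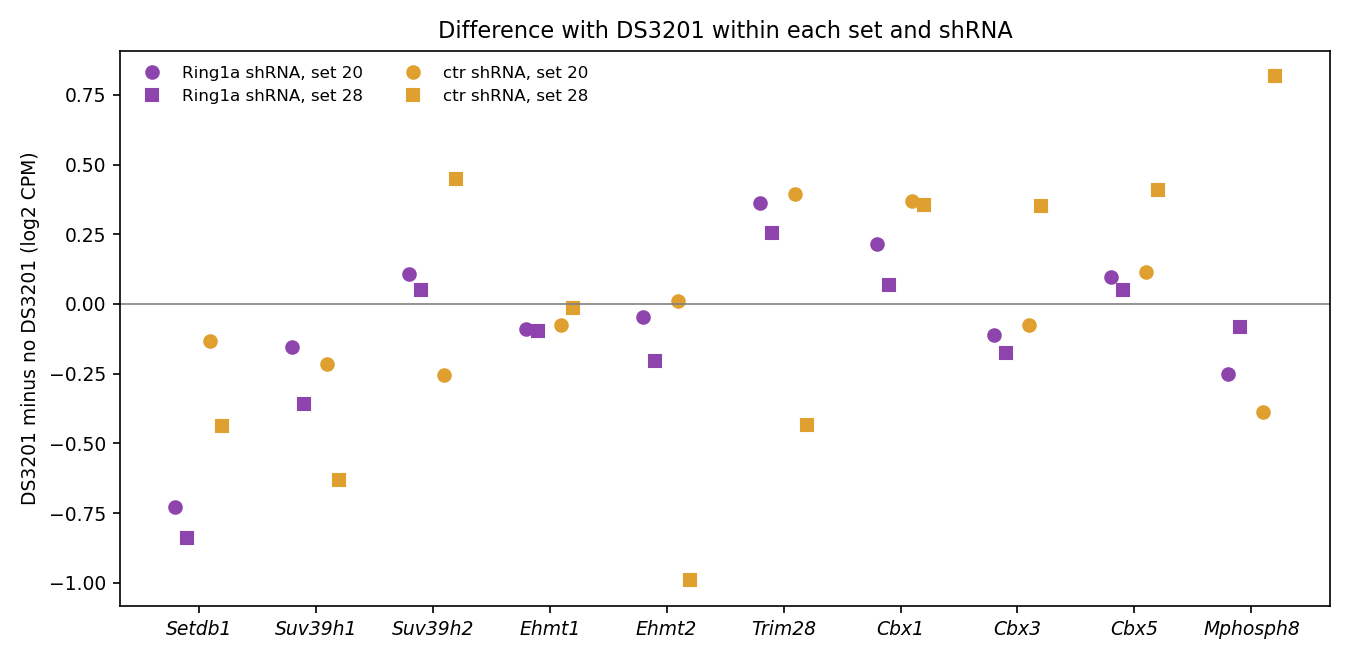
Difference with DS3201 minus without it (log2 CPM, vertical axis) for each gene in the 4 pairs of libraries of the same shRNA and set. All 4 points are below 0 for Setdb1, Suv39h1 and Ehmt1 and above 0 for Cbx1 and Cbx5, and the points of ctr shRNA in set 28 lie farthest from 0 for 7 of the 10 genes, the exceptions being Setdb1, Ehmt1 and Cbx1.

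Leaving out the library that stands apart moved the number of called genes. With that library left out and the set as a block, 2 of 10 passed under DS3201, Trim28 (0.31) and Suv39h1, beside 26.0% of entries. Suv39h1 fell by 0.27 ± 0.07 on the log2 scale (adjusted p = 0.0343), and Setdb1 was at -0.48 ± 0.14 (adjusted p = 0.0521). None of the 10 passed with that library left out when the block was not used. A fit that leaves out the set 20 library of ctr shRNA with DS3201 instead has the library that stands apart as its whole group. With the block, 6 of the 10 then passed, Setdb1, Suv39h1 and Ehmt2 lower and Cbx1, Cbx5 and Mphosph8 higher, beside 41.9% of entries. The share of members that passed in this fit lies above that of all entries and rests on the library that stands apart.

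Taken by shRNA, DS3201 gave no called member either. In ctr shRNA cells 0.726% of entries passed and in Ring1a shRNA cells 0.602%, with 0 of the 10 genes in each, and 7.33% and 6.88% with the block, again with 0 of 10. Setdb1 had the largest difference, -0.79 ± 0.46 in Ring1a shRNA cells (adjusted p = 0.814), with -0.73 in set 20 and -0.84 in set 28, against -0.24 ± 0.46 in ctr shRNA cells (adjusted p = 0.872). Without the library that stands apart, the value in ctr shRNA cells was -0.15 ± 0.22 with the block and 0.11 ± 0.46 without it. The second value sets 1 set 20 library with DS3201 against controls of both sets, so it includes the difference between the sets. Within set 20 the difference was -0.13. With the block the value in Ring1a shRNA cells was -0.80 ± 0.24 (adjusted p = 0.117), and without the library that stands apart, which is in neither group of that comparison, -0.81 ± 0.17 with an adjusted p of 0.0337, where 13.2% of entries passed. The difference between the 2 shRNAs was tested as the interaction, at -0.54 ± 0.66 (adjusted p = 1). No entry passed for the interaction (0%), 23 entries having an unadjusted p under 0.05 and DESeq2 calling 0, so the larger value in Ring1a shRNA cells is not shown to differ from that in ctr shRNA cells. Without the set 20 library of ctr shRNA with DS3201, which leaves the library that stands apart as its group, the fit with the block called 7 of the 10 genes in ctr shRNA cells (36.8% of entries), 1 in Ring1a shRNA cells (2055 entries) and 4 for the interaction (12.9%).

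Whether knockdown of Ring1a, in cells labelled as lacking its paralogue Ring1b, alters the machinery was addressed by setting Ring1a shRNA against ctr shRNA. Over both DS3201 states, 0% of entries passed, with 468 of 15287 at an unadjusted p under 0.05 and 22 called by DESeq2 (7 higher and 15 lower). The knockdown alone and the knockdown with DS3201 called 0% of entries too, with 155 and 272 at an unadjusted p under 0.05 and 1 and 1 by DESeq2. None of the 10 genes was called by either tool. Ring1, the target of the shRNA, was not called by edgeR in these comparisons either, with or without the block. Its log2 fold change over both states was -2.33. The tests thus missed a change of that size, and the lack of calls does not show that the 10 genes are unaltered. The log2 fold changes of the 10 over both states ran from -0.23 for Cbx5 to 0.28 for Setdb1, with a median of -0.09 beside 0.00 over all entries. Setdb1 without DS3201 was higher in the Ring1a shRNA library of each set, by 0.46 and 0.65, with a log2 fold change of 0.55 ± 0.46 (adjusted p = 1), and with DS3201 the value was 0.00 ± 0.47 (adjusted p = 1). With DS3201 it depends on which ctr shRNA library is kept, at -0.37 without that of set 28 and 0.59 without that of set 20. These 2 fits set Ring1a shRNA libraries of both sets against a ctr shRNA library of 1 set, so they include the difference between the sets. With the block the values were -0.10 and 0.26, and the differences within the sets were -0.13 in set 20 and 0.25 in set 28. Cbx5 was lower with Ring1a shRNA in all 4 pairs (-0.23 ± 0.33; with the block -0.24 ± 0.11, adjusted p = 0.552), and so was Ehmt1 (-0.10 ± 0.18). These are 2 of 10 genes with 1 sign in 4 of 4 pairs, against 27.3% of all entries, and no member had separate ranges in the 4 and 4 libraries, against 2.56% of entries. Without the set 20 library of ctr shRNA with DS3201, the fit with the block called 5 of the 10 genes over both states (22.0% of entries) and 6 with DS3201 (27.0%), again with the library that stands apart as the whole group of ctr shRNA with DS3201.

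The combination of Ring1a shRNA and DS3201 against ctr shRNA alone called 1.46% of entries and 0 of the 10 genes (11.3% and 0 of 10 with the block). The members ran from -0.24 for Setdb1 to 0.27 for Trim28, with a median of -0.13 beside 0.02 over all entries. Trim28 had 0.31 in set 20 and 0.23 in set 28 at an estimate of 0.27 ± 0.29 (adjusted p = 0.841). This comparison shares its control libraries with those of the single perturbations.

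Several members differed more between the sets than between treatments. In 5 of 10 genes the 4 set 20 libraries and the 4 set 28 libraries did not overlap, against 25.2% of entries. Cbx5 averaged 1.71 times as high in set 20 as in set 28 and Ehmt2 1.26 times, while Suv39h2 averaged 0.80 times, Ehmt1 0.783 times and Cbx1 0.783 times. Setdb1 averaged 1.57 times as high in set 20 with overlapping ranges. Part of these ratios comes from the library that stands apart. In it Ehmt2 (98.9 CPM) and Setdb1 (4.33 CPM) had their lowest set 28 values, and Suv39h2 (21.3 CPM) and Cbx1 (74.5 CPM) their highest. For Cbx5 it goes the other way, with the set 28 value nearest to set 20 (483 CPM). The gap for Ehmt2 is narrow, 201 CPM at the lowest in set 20 against 199.6 CPM at the highest in set 28. What the sets are, batches or independent cultures, is not given for the prefix, and the labels give each replicate number its own batch.

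The balance between paralogues was set out as ratios of counts. The ratio of Cbx3 to Cbx1 was 4.78 and 4.31 in Ring1a shRNA cells with DS3201, 4.80 and 4.86 in ctr shRNA cells with DS3201, 6.01 and 5.12 in Ring1a shRNA cells, and 6.55 and 4.88 in ctr shRNA cells. It was lower in all 4 libraries with DS3201 than in all 4 without, by 0.26 on the log2 scale (2.23 ± 0.08 with DS3201 and 2.48 ± 0.20 without, SD, n = 4 each; exact permutation test, two-sided, p = 0.0286, the smallest that 70 permutations can give). Adjusted over the 8 ratio tests the p was 0.229, and with permutation within the sets it was 0.0556, the smallest of 36, so the difference does not pass correction. The highest ratio with DS3201 was 4.86 and the lowest without it 4.88, so the separation rests on a narrow gap. The DS3201 differences of the ratios of Suv39h1 to Suv39h2 (-0.43, exact permutation p = 0.2), Ehmt1 to Ehmt2 (0.24, exact permutation p = 0.686) and Cbx5 to Cbx1 (-0.09, exact permutation p = 0.743) did not pass, and neither did those with Ring1a shRNA (exact permutation p = 0.514 to 0.743). The ratio of Cbx5 to Cbx1 was lower with Ring1a shRNA in each of the 4 pairs of the same set, by 0.17 on the log2 scale on average, with an exact permutation p within the sets of 0.0556, the smallest possible. Per kilobase, Cbx3 made up 52.1% to 64.6% of the summed HP1 level, Cbx1 13.1% to 21.3%, and Cbx5 26.9% to 31.5% in set 20 but 16.3% to 18.0% in set 28.

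Genes that act beside the 10 were read from 6 lists, 63 of 66 genes being tested. None of the 63 passed in any of the 8 comparisons without the block, with 7 at an unadjusted p under 0.05 for DS3201 over both shRNAs. With the block 5 of 63 passed for DS3201, 7.94% beside 17.1% of all entries, all higher with DS3201. Prdm8, a member of the PRDM family of transcriptional regulators, had 0 counts in all 4 libraries without DS3201 and 0.44 and 1.60 CPM in Ring1a shRNA cells with DS3201, and 0.40 and 1.24 CPM in ctr shRNA cells with DS3201. Against 3 counts over the 4 libraries at 0, it was at least 22.0-fold higher (block adjusted p = 0.00749). Kdm4d, a demethylase of H3K9, was at 0.82 and 1.28 CPM in Ring1a shRNA cells with DS3201, 1.08 and 0.79 CPM in ctr shRNA cells with DS3201, 0.16 and 0.20 CPM in Ring1a shRNA cells, and 0 and 0.34 CPM in ctr shRNA cells (log2 fold change 2.59 ± 0.65, block adjusted p = 0.0366). All 4 libraries with DS3201 lay above all 4 without it. The chromodomain gene Cdyl2 ranged from 18.2 to 26.8 CPM in the 4 libraries with DS3201 and reached at most 13.8 CPM in the 4 without (0.75 ± 0.15, block adjusted p = 0.0156). Kdm7a, a demethylase of H3K9 and H3K27, rose by 0.75 ± 0.16 (block adjusted p = 0.0206), and Cbx2, a chromodomain subunit of PRC1, by 0.56 ± 0.14 (block adjusted p = 0.0349). In the combined perturbation against ctr shRNA, 3 of the 63 passed with the block, 4.76% beside 11.3% of all entries, Prdm8 (adjusted p = 0.0277) and Cbx2 (0.93 ± 0.20, adjusted p = 0.0288) among them. Ezh2, a target of DS3201 itself and of no list above, was higher with DS3201 with the block, by 0.52 ± 0.13 (adjusted p = 0.0356). Without the block it did not pass, the lowest edgeR adjusted p of the 4 perturbed genes being 0.398. Its highest value, 156 CPM, is in the library that stands apart. In set 20 it was at 89.6 and 80.9 CPM with DS3201 (Ring1a shRNA, then ctr shRNA), against 60.4 and 59.6 CPM without it.

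For DS3201 over both shRNAs, beside a median log2 fold change of 0.04 over all entries, the list medians were 0.17 for 4 other H3K9 methyltransferase genes, 0.08 for 10 partners of SETDB1 and HUSH, 0.25 for 8 partners of EHMT1 and EHMT2, 0.01 for 11 H3K9 demethylases, 0.11 for 25 HP1 partners and heterochromatin proteins and 0.33 for 5 Polycomb chromodomain proteins. Counts of these lists are a description and no test was made of them.

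Genes with the pattern most like a member's were sought by Pearson r of log2 CPM centred within each set, over 8 libraries and 12943 genes, for the 3 members with the widest range of group means. Setdb1 had a range of 0.84, and Itgb3 (r = 0.972), Ndufaf3 (r = 0.972) and Jtb (r = 0.966) were nearest. Ehmt2 had a range of 0.49, with 4933408J17Rik (r = 0.998), Rab40c (r = 0.998) and Edc3 (r = 0.997) nearest among 1144 genes with r over 0.9. Suv39h1 had a range of 0.47, with Ints3 (r = 0.994), Stk11 (r = 0.992) and Acy1 (r = 0.990) nearest among 871 such genes. These correlations share the libraries, the library that stands apart among them, and are given as a description. For Suv39h1, 59.5% of entries had a wider range of group means, for Setdb1 29.2%, and for Suv39h2 96.1%.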

How the data were processed

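Poly(A) RNA-seq libraries of 4 groups, 2 each, were analysed from the authors' deposited table of raw counts, which are whole numbers per gene symbol or repeat subfamily with no normalization. Trimming with Trim Galore and alignment with TopHat2 to mm10 are per the submitters' processing notes, without versions; neither the counting tool, nor its strand setting, nor the annotation is given in the sources used here. A further 8 columns, with names matching none of the labels, were left out. The members and gene lists were chosen with earlier results of these data known.

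Tests used edgeR 4.0.16 in R 4.3.3 (filterByExpr by group, TMM, robust quasi-likelihood F test, two-sided, 1 term per group, all 8 libraries, Benjamini-Hochberg over 15287 entries, threshold 0.05); the procedure was tested on simulated data. Alternatives were DESeq2 1.42.0, other scalings, no filter, the set as replicate block, and each library left out, alone and with the block. Set differences correlated across entries between groups at r from 0.559 to 0.897, all over 0.1, so the column prefix was used as the block; the labels do not tie prefixes to replicate numbers. Log2 CPM used a prior count of 2, and count ratios a pseudocount of 0.5 with exact permutation tests over libraries. Fold changes of groups at 0 are lower bounds over 3 counts. Transcript lengths, GC content and overlaps are from GENCODE and promoter windows from RefSeq, both on GRCm38. Named genes are all members, the perturbed genes, per list, comparison and direction up to 2 called genes with the largest change (with the block where none was called without it), and the 3 genes most like each of the 3 members with the widest range. Nothing says that replicates came from separate cultures, so p-values reflect spread among these libraries alone, possibly technical. Intervals cover the spread between libraries, and floors counting error only. Some results on the related genes are not reported here.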

Additional observations from a re-analysis of the deposited data

How the results depend on the processing

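Without leaving out a library, no member passed in any of the 8 comparisons under the other scalings, no filter, DESeq2 or the replicate block. The replicate block thus changed no call among the members. Of 530 values of single members under these settings, 516 kept their direction and 14 changed sign, none of them past the test; of 1280 with a library left out, 1080 kept direction and call, 32 kept direction and newly passed, 167 changed sign without passing and 1 changed sign and passed. Leaving out a library gave 0 to 6 called members for DS3201 over both shRNAs, 0 to 5 for Ring1a shRNA over both states, 0 to 7 for DS3201 with ctr shRNA, 0 to 1 for DS3201 with Ring1a shRNA, 0 to 6 for Ring1a shRNA with DS3201 and 0 to 4 for the interaction. The highest of each came with the set as block and without the set 20 library of ctr shRNA with DS3201, where 12.9% to 41.9% of entries passed (for DS3201 with Ring1a shRNA the same count also came without the set 28 library); the lone library left in that group is assumed to vary like the others. Without that library and without the block, 1 member passed for DS3201, Ehmt2 at -0.59 (adjusted p = 0.0494), beside 6.96% of entries. Trim28 in DS3201 with ctr shRNA reversed there, to -0.43 with the block (adjusted p = 0.0219), against 0.04 with all libraries; over all the left-out libraries it lay between -0.45 and 0.35. The ratio of Cbx3 to Cbx1 with DS3201, at -0.26 by construction also under the replicate block, had an exact permutation p of 0.0556 with permutation within each set. Leaving out a library moved the log2 ratio differences with DS3201 between -0.32 and -0.18 for Cbx3 to Cbx1, -0.30 and 0.17 for Cbx5 to Cbx1, -0.088 and 0.42 for Ehmt1 to Ehmt2, and -0.60 and -0.16 for Suv39h1 to Suv39h2. With Ring1a shRNA they lay between -0.14 and 0.051, -0.38 and 0.074, -0.45 and 0.048, and -0.11 and 0.32 for the same ratios. The cause was not tested. Setdb1, at 49 to 322 counts per library, is the member with the fewest counts. The SE of its DS3201 fold change over both shRNAs was 0.33, as was that of Cbx5 at 4953 to 14529 counts. The part of depth in the precision was not tested.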
